A study of Rattus norvegicus with 24 samples.

Results

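Liver RNA of rats was compared between burn and sham treatment on day 4, with 3 burn arrays and 3 sham arrays out of 24 arrays in the series. The 6 arrays were chosen by their titles, which give a day, a letter and a number, and the letters b and s were taken for burn and sham from the series title and from descriptions of other arrays. The day 4 labels give whole liver as the tissue and total RNA as the molecule. Strain, age, sex, the way the burn was made and the sham procedure are not stated by the labels. Nor do they say whether a group's arrays are from different rats, so each p-value speaks only of the spread among these arrays, which may be technical. The description of burn day 2 replicate 1 speaks of a sham control against its title, and the title was followed. Arrays of days 2 and 7, with 3 burn and 3 sham arrays on each day, entered the same fit to estimate the spread and served as a comparison for day 4.

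A burn sets off a systemic response in which the liver takes a central part. Cytokines released from the wound and from immune cells drive hepatocytes to make acute phase proteins such as fibrinogen and haptoglobin, while the output of albumin and transthyretin goes down. The liver also supplies glucose and handles the fatty acids released from adipose tissue in the hypermetabolic state that follows a large burn. In whole liver, fewer cells of a type and less RNA per cell cannot be told apart.

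The names in the table did not belong to the values. Where 2 probe sets carried one gene symbol (1868 pairs), their levels on day 4 correlated at only -0.05. The 13 rows listed under hepatocyte markers, which cover 9 of 10 marker genes looked for, lay between percentiles 2.96 and 97.4 of the day 4 levels, with a median of 49.5, so the labelled tissue could not be checked against its markers. Rows are therefore called by their place in the deposited table (row 3800 is the 3800th row of values), and no gene is named except the array's control transcripts. The names of the control rows were not part of this check and are taken as given. Arrays of day 1 correlated with those of day 4 at only 0.029 to 0.039 over rows and were not used.

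The 6 arrays of day 4 resembled each other about as closely across groups as within them. Over 15866 rows, burn arrays correlated with each other at 0.961 to 0.970, sham arrays at 0.962 to 0.969, and burn with sham arrays at 0.953 to 0.969. Median signal as deposited ran from 198 to 230 on burn arrays and from 206 to 233 on sham arrays, and array number limits the precision of all values. The median SD of a row was 0.21 in burn and 0.22 in sham liver on the log2(signal + 16) scale, on which all levels and differences below are given after quantile normalization. On this scale a difference of 1 is a 2-fold change of signal + 16, which understates the change of dim rows.

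Burn and sham liver of day 4 differed by small amounts in most rows, and no single row passed the test after adjustment. In limma, 0 of 15866 rows (0%) had an adjusted p under 0.05, the smallest adjusted p being 0.0921, shared by row 3552 and row 3800. When 1 array was dropped, 12 arrays still gave 0 calls. Dropping replicate 1 of the day 4 burn group or replicate 3 of the day 4 sham group gave 4. Replicate 1 of that sham group gave 1, and the day 7 burn replicates 1, 2 and 3 gave 1, 2 and 1. The unadjusted p was under 0.05 in 1478 rows (9.32%), of which 788 (4.97%) had the higher mean in burn liver and 690 (4.35%) in sham. The groups stood wholly apart, with no overlap of their arrays, in 2356 rows (14.8%). With 3 arrays against 3, many rows would stand apart by a random order of the arrays alone. Such shares, here and by signal level below, are therefore not counts of rows changed by the burn. A 2-fold difference or more was found in 147 of the rows without overlap, with burn the higher group in 69 (0.435%) and the lower in 78 (0.492%). On day 2 there were 209 rows without overlap and at least 2-fold apart (1.32%), on day 4 there were 147 (0.927%) and on day 7 there were 218 (1.37%). These counts were not tested against each other. With any 1 array of day 4 left out, which sets 2 arrays against 3, the 69 became 104 to 162 and the 78 became 126 to 156. The balance of directions moved with the scaling: of the rows without overlap, 1214 (7.65%) had burn above sham and 1142 (7.20%) below, against 1006 and 1302 on values as deposited and 1178 and 880 with median scaling.

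How large a difference was, and how often the groups stood apart, went opposite ways with signal level. Rows were divided by mean level into 3 bands of equal size. In the bright band, at levels above 8.57, the groups were wholly apart in 21.9% of 5289 rows (635 higher and 525 lower in burn). The share was 12.1% of 5288 rows (295 and 343) in the middle band and 10.6% of 5289 rows (284 and 274) in the dim band, at levels up to 7.01. At an unadjusted p under 0.05, limma gave 751 rows (14.2%), 415 rows (7.85%) and 312 rows (5.90%). The median SD of a row went the other way, from 0.15 in both groups in the bright band to 0.32 in burn and 0.34 in sham in the dimmest. The median size of a difference without overlap was 0.32 in the bright band, 0.40 in the middle band and 0.61 in the dimmest.

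**Figure D1:**
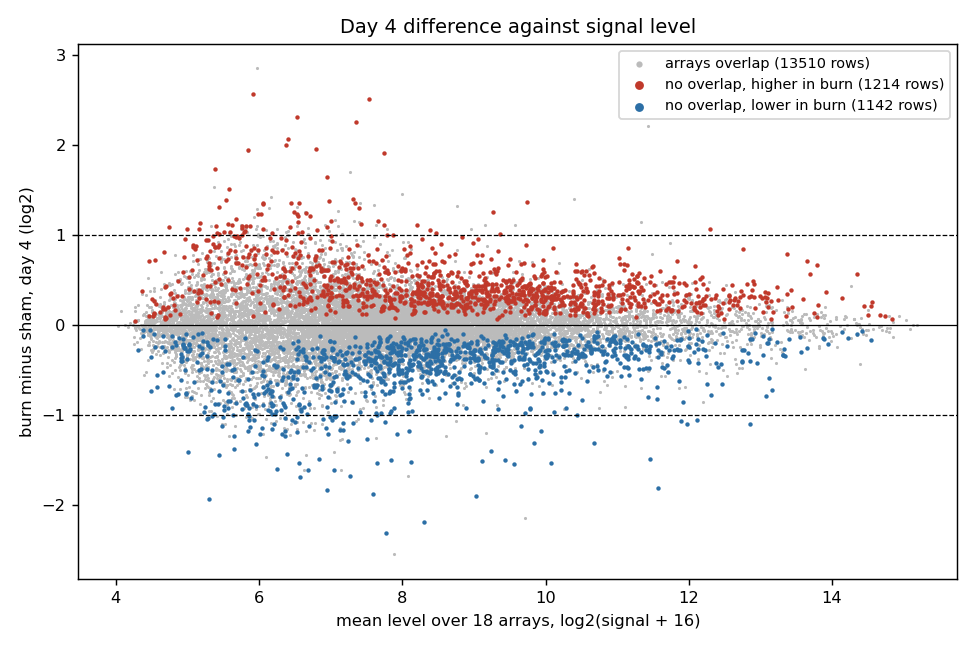
Each point is 1 of 15866 rows, with its mean level over 18 arrays on the horizontal axis and burn minus sham on day 4 on the vertical axis (both log2). Red and blue points are the 1214 and 1142 rows whose 3 burn and 3 sham arrays did not overlap, and dashed lines mark a 2-fold difference, which few bright rows reached.

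The directions of the larger differences are given here by level. In the dim band, a 2-fold gap without overlap was seen upward in 50 rows and downward in 40. The middle band held 15 and 22 such rows, and the bright band held only 4 higher and 16 lower. Among the 300 most abundant rows, 50 were higher and 37 lower without overlap (29% together), and 1 of these, row 7265, which was chosen by the rule for bright rows, differed by 2-fold or more. The excess of rows lower in burn among bright rows with a large difference was a description and was not tested.

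**Figure D2:**
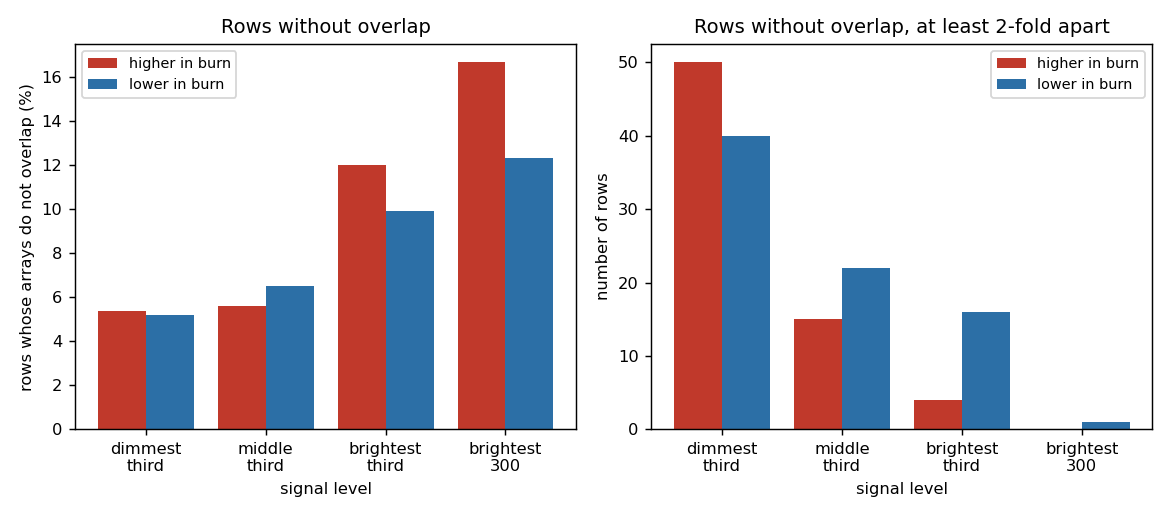
The left panel gives the percent of rows without overlap between 3 burn and 3 sham arrays of day 4, by signal level, and the right panel the number of these rows at least 2-fold apart. Red bars are rows higher in burn and blue bars rows lower in burn. The share without overlap is largest among bright rows, while the counts of 2-fold differences are largest in the dim band.

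The 3 rows of lowest p in each direction on day 4 are described next, a choice that favors tight groups as well as large differences. Row 3800 stood at 7.42, 8.09 and 7.78 on the sham arrays and at 5.96, 5.42 and 5.36 on the burn arrays. The signals as deposited were 180, 260 and 214 in sham and 52.5, 24.9 and 21.8 in burn. Every burn array lay more than 1 log2 unit below every sham array, and the difference was -2.18 ± 0.34 (SE, limma adjusted p = 0.0921). Pseudocounts of 1 and 64 gave -2.64 and -1.47. Row 3800 was called under 4 of 10 other settings: on values as deposited (limma adjusted p = 0.0405), with array weights (0.0401), with a robust variance that follows intensity (0.0331) and without the dim band of rows (0.0281). It was also called without burn day 7 replicate 2 (limma adjusted p = 0.0038). Over all alternatives its adjusted p ran from 0.0038 to 0.302.

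Row 3552 read 7.82, 7.68 and 8.05 in sham and 6.15, 6.73 and 6.89 in burn liver. The groups were apart by more than the spread within either, with a difference of -1.26 ± 0.19 (SE, limma adjusted p = 0.0921; range over alternatives 0.0281 to 0.419). Row 8041, a bright row at percentile 96.9 of all levels, read 12.19, 12.17 and 12.31 in sham and 10.77, 11.30 and 11.44 in burn. Its difference of -1.06 ± 0.19 (SE) had a limma adjusted p of 0.141, with 0.0392 to 0.421 over alternatives. These 3 rows were chosen for the lowest p among rows lower in burn, so their direction and separation follow from the choice.

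In the other direction, row 6732 had the lowest p. It read 4.77, 5.03 and 5.37 in sham and 6.80, 7.13 and 7.24 in burn, a difference of 2.0 ± 0.33 (SE, limma adjusted p = 0.108; range over alternatives 0.0070 to 0.372). The sham signals of 14.8, 14.7 and 24.8 as deposited lay near the bottom of the scale, and pseudocounts of 1 and 64 gave 2.73 and 1.15 in place of 2.0. Row 106 read 6.54, 7.16 and 6.99 in sham against 8.03, 7.96 and 8.05 in burn, a difference of 1.12 ± 0.19 (SE, limma adjusted p = 0.141). Row 15312, a bright row, showed a smaller difference of 0.68 ± 0.12 (SE, limma adjusted p = 0.141), from 9.98, 9.98 and 9.84 in sham to 10.51, 10.74 and 10.57 in burn. The SD of the burn arrays was 0.23, 0.05 and 0.12 in these 3 rows (n = 3). They too were chosen by low p, which favors tight groups.

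In several rows with the largest differences without overlap, the burn arrays lay far apart from each other. Of rows without overlap, row 7821 had the largest upward difference, 2.56 ± 0.59 (SE, limma adjusted p = 0.257). In this row it was 1.59 with a pseudocount of 64 and 1.88 without burn replicate 2. Its sham arrays read 4.96, 4.92 and 4.88, near the bottom of the scale, and its burn arrays 6.52, 8.85 and 7.08. Burn replicate 2 stood highest there, and again in row 6100, which read 5.61, 5.6 and 6.61 in sham and 6.64, 9.95 and 8.14 in burn. In row 6100 burn replicate 1 lay only just above sham replicate 3, and the difference of 2.31 ± 0.77 (SE) had a limma adjusted p of 0.372. It was 1.45 without burn replicate 2. Row 6523 followed the same order of burn arrays, at 7.05, 9.61 and 8.14 against 6.48, 5.88 and 6.56 in sham. Its difference was 1.96 ± 0.57 (SE, limma adjusted p = 0.307), and without single arrays it ran from 1.29 (burn replicate 2 left out) to 2.57.

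Row 12865 showed a difference of like size that all burn arrays shared. It read 6.03, 7.16 and 5.86 in sham and 8.20, 7.93 and 8.65 in burn, 1.92 ± 0.49 (SE) apart with a limma adjusted p of 0.270. Rows 10563, 306 and 7392 were higher in burn by 1.37, 1.36 and 1.26, with limma adjusted p of 0.270, 0.395 and 0.510. Row 10563 read 8.40, 8.20 and 7.58 in sham and 8.58, 9.31 and 10.38 in burn, and without burn replicate 3 its difference was 0.89. In row 7392 the sham arrays lay close together (8.52, 8.62 and 8.51), while burn read 9.93, 10.20 and 9.27.

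Downward, row 7762 had the largest difference among rows without overlap, -2.31 ± 0.62 (SE, limma adjusted p = 0.270). It read 9.82, 9.81 and 9.46 in sham, and 9.06, 6.65 and 6.45 in burn, so burn replicate 1 lay close to the sham arrays and the other two far below. In row 14573 the spread was wider still: sham read 9.76, 9.90 and 9.75, and burn 6.31, 7.77 and 9.62, a difference of -1.90 ± 0.76 (SE, limma adjusted p = 0.452). Without burn replicate 1 it was -1.11, and without burn replicate 3 it was -2.76. Row 14852 read 8.77, 9.17 and 8.14 in sham and 6.95, 5.67 and 7.84 in burn, -1.88 ± 0.50 (SE) apart with a limma adjusted p of 0.270. Burn arrays thus varied more than sham arrays in each of these 3 rows, with SD of 1.45, 1.66 and 1.09 against 0.20, 0.08 and 0.52.

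Rows 4224 and 11442 differed more evenly. Row 4224 read 8.55, 8.69 and 7.57 in sham and 7.01, 6.28 and 6.51 in burn, a difference of -1.67 ± 0.32 (SE, limma adjusted p = 0.172). Without sham day 4 replicate 3 it was -2.02, with a limma adjusted p of 0.0423. Row 11442 read 10.65, 10.51 and 10.14 in sham and 9.25, 8.80 and 8.63 in burn, -1.54 ± 0.31 (SE) apart with a limma adjusted p of 0.194.

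**Figure D3:**
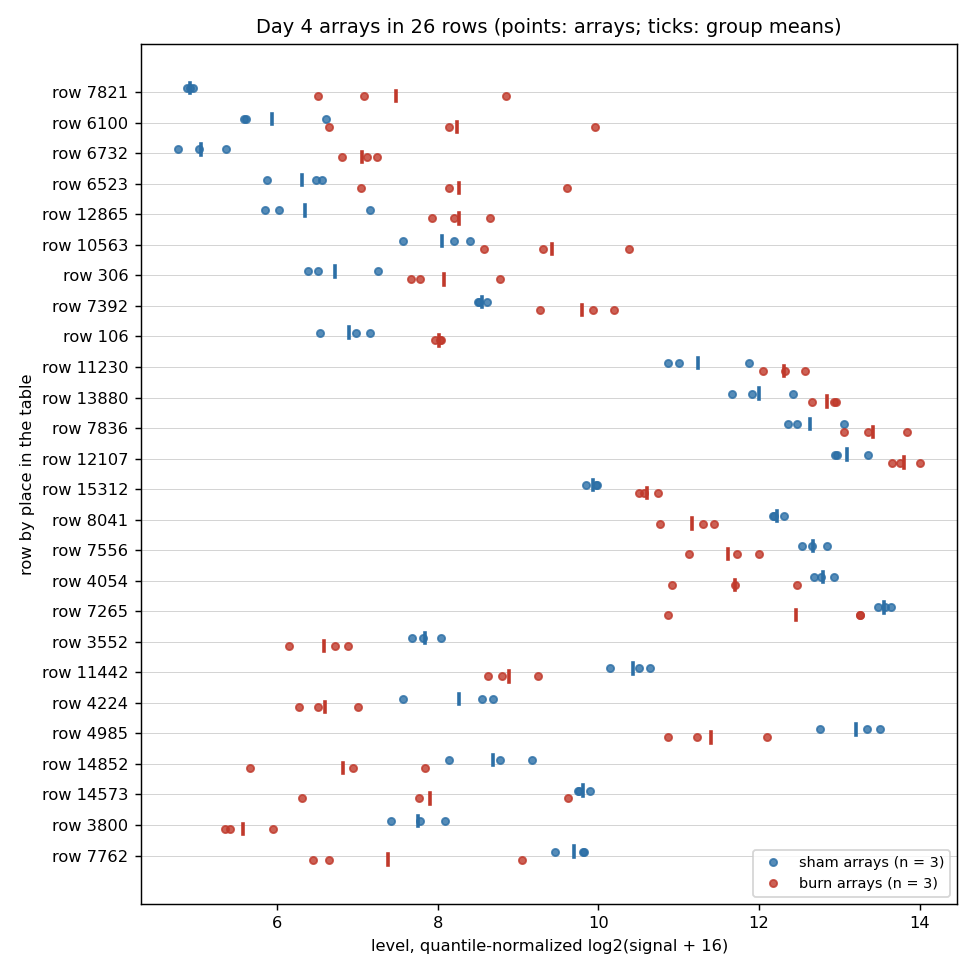
Points are the 3 sham arrays (blue) and 3 burn arrays (red) of day 4 in 26 rows, ordered by the difference between group means, which ticks mark. The horizontal axis is the quantile-normalized level in log2(signal + 16). The groups do not overlap in any of these rows; in rows 7762 and 7265 a single burn array lies far from the other two.

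Of the rows described that lie among the brightest 5% by mean level, row 4985 differed most, at 13.51, 13.34 and 12.76 in sham and 12.10, 11.23 and 10.87 in burn, a difference of -1.80 ± 0.85 (SE, limma adjusted p = 0.542). Its SE draws on all days, and the SD of its burn arrays was 2.18 on day 7 against 0.63 on day 4. Row 7265 read 13.64, 13.47 and 13.56 in sham, and 13.26 and 13.26 on burn replicates 2 and 3, but 10.86 on burn replicate 1. Without that array the difference was -0.30, against -1.10 ± 0.91 (SE, limma adjusted p = 0.804) with it. The differences of rows 4054 and 7556 were -1.10 and -1.06, with limma adjusted p of 0.446 and 0.268. Row 4054 read 12.77, 12.68 and 12.94 in sham and 12.47, 11.71 and 10.91 in burn, and without burn replicate 3 its difference was -0.71.

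Among rows of the brightest 5% without overlap and higher in burn, row 11230 led with 1.07 ± 0.26 (SE, limma adjusted p = 0.268). It read 10.86, 11.00 and 11.88 in sham and 12.57, 12.05 and 12.33 in burn. Rows 13880, 7836 and 12107 were higher by 0.85, 0.79 and 0.71 (limma adjusted p = 0.424, 0.371 and 0.359). In each of these 4 rows sham replicate 3 was the sham array nearest to burn. The same array was also the nearest in 79 of the 147 rows without overlap and at least 2-fold apart (53.7%), against 46 for sham replicate 2 and 22 for sham replicate 1. The 3 burn arrays were nearest to sham in 49, 41 and 57 of them.

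On the other days these rows mostly did not repeat what they showed on day 4. Of the 69 rows at least 2-fold higher without overlap on day 4, 38 were higher in burn on day 2 (55.1%, against 48.7% of all rows) and 40 on day 7 (58.0%, against 48.0% of all rows). Their median was 1.15 on day 4 itself, but 0.06 and 0.10 on days 2 and 7. Of the 78 rows at least 2-fold lower, 38 were lower on day 2 (48.7%, against 51.3% of all rows) and 39 on day 7 (50%, against 52.0%), with medians of -1.18, 0.02 and -0.02. Each day was compared with its own sham arrays. The rows were chosen for a large difference on day 4, so smaller medians on the other days follow at least in part from the choice. Among the 26 rows, only row 12107 stood apart upward on all 3 days, by 0.97, 0.71 and 1.2 in order of day, and its groups did not overlap on any of them.

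Rows apart on day 4 differed in which group lay away from its own level on the other days. In row 12865 sham liver averaged 6.35 ± 0.71 (SD, n = 3) on day 4, against 8.15 ± 0.16 on day 2 and 8.15 ± 0.32 on day 7, while burn averaged 8.26 ± 0.37 on day 4 and 7.35 ± 1.35 and 8.25 ± 0.23 on the other days. There the sham arrays of day 4 were the low ones. In row 7821 both groups lay away from their other days, in opposite directions. Burn averaged 7.48 ± 1.22 on day 4 against 5.73 ± 0.97 and 5.66 ± 0.82 on days 2 and 7, and sham 4.92 ± 0.04 against 5.89 ± 0.72 and 5.83 ± 0.47. Sham lay farther than burn from its own level on days 2 and 7 in 43 of the 69 rows higher in burn (62.3%) and in 39 of the 78 rows lower in burn (50%), against 51.0% of all rows. For sham arrays alone, limma called 0 rows (0%) different between day 4 and the mean of days 2 and 7, with 1969 rows at an unadjusted p under 0.05 (12.4%). Dropping replicate 3 of the day 4 sham group gave 21 calls there, and the other arrays 0 to 9.

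Whether the burn effect of day 4 differed from that of the other days was tested directly. Against the mean effect of days 2 and 7, limma called 7 rows (0.0441%), 6 with a lower (0.0378%) and 1 with a higher effect (0.00630%) on day 4, and 1652 rows had an unadjusted p under 0.05 (10.4%). Against day 7 alone 2 rows were called (0.0126%), with 1660 at an unadjusted p under 0.05 (10.5%). Dropping 1 array gave 0 calls against day 7 for 8 of 18 arrays and 66 for replicate 2 of the day 7 sham group. Against day 2 alone 0 rows were called (0%), with 1349 at an unadjusted p under 0.05 (8.50%). The ratio of the 3' to the 5' probe set of the control transcript beta-actin, a measure of RNA integrity, also differed by day. Burn minus sham, it was -0.36, 0.11 and -0.74 (log2) on days 2, 4 and 7. On day 7 it was 0.41 ± 0.04 in burn and 1.15 ± 0.24 in sham (SD, n = 3 each). The part of RNA integrity in the calls of this comparison was not tested. All 7 rows are described next, a choice made after their values were seen. They share a limma adjusted p of 0.0412.

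In 6 of the 7 rows burn was above sham on days 2 and 7 and below it on day 4. Row 2716 gave the plainest form. Sham liver stayed level, at 9.88 ± 0.22, 9.95 ± 0.21 and 10.01 ± 0.08 (SD, n = 3 each) on days 2, 4 and 7. Burn liver read 10.34, 10.24 and 10.66 on day 2, 8.77, 8.67 and 8.90 on day 4, and 10.66, 9.96 and 11.02 on day 7. The burn effect was thus 0.53, -1.17 and 0.54 on the 3 days, and the effect of day 4 minus the mean of the others was -1.71 ± 0.27 (SE).

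Row 3800 had the largest such difference among these 6, -2.57 ± 0.41 (SE). Burn averaged 9.73 ± 0.44 on day 2, 5.58 ± 0.33 on day 4 and 8.89 ± 0.84 on day 7, against sham at 9.24 ± 0.24, 7.76 ± 0.33 and 8.60 ± 0.11. Both groups were lowest on day 4 in this row, and burn by far the lower. In row 11442 both groups differed between days: sham averaged 9.67, 10.43 and 8.38 on the 3 days and burn 10.17, 8.89 and 9.83, for a difference in effect of -2.51 ± 0.38 (SE).

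Row 14826 averaged 8.58, 8.92 and 7.88 in sham and 9.81, 8.17 and 9.31 in burn. Its effect on day 4 was -0.75, against 1.23 and 1.43, a difference of -2.08 ± 0.32 (SE). Rows 11684 and 10731 behaved alike at smaller size, with effects of -0.58 and -0.76 on day 4 and differences in effect of -1.39 ± 0.22 and -1.26 ± 0.20 (SE). On day 4 burn and sham did not overlap in any of the 7 rows, while 14.8% of all rows were without overlap. The test that called the 7 rows includes the day 4 difference, so their separation follows in part from the choice.

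Row 6732 was the single row with a higher effect on day 4, by 2.74 ± 0.40 (SE), or 1.59 with a pseudocount of 64. Its sham arrays were low on day 4 alone, at 5.06 ± 0.30 against 6.88 ± 0.37 and 6.94 ± 0.09 (SD, n = 3 each), and its burn arrays low on day 7, at 5.51 ± 0.88 against 6.82 ± 0.21 and 7.06 ± 0.23 on days 2 and 4. Against day 7 alone the difference in effect was 3.42 in row 6732 (limma adjusted p = 0.0369), where a pseudocount of 64 gave 1.98, and -2.99 in row 11442 (limma adjusted p = 0.0443).

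**Figure D4:**
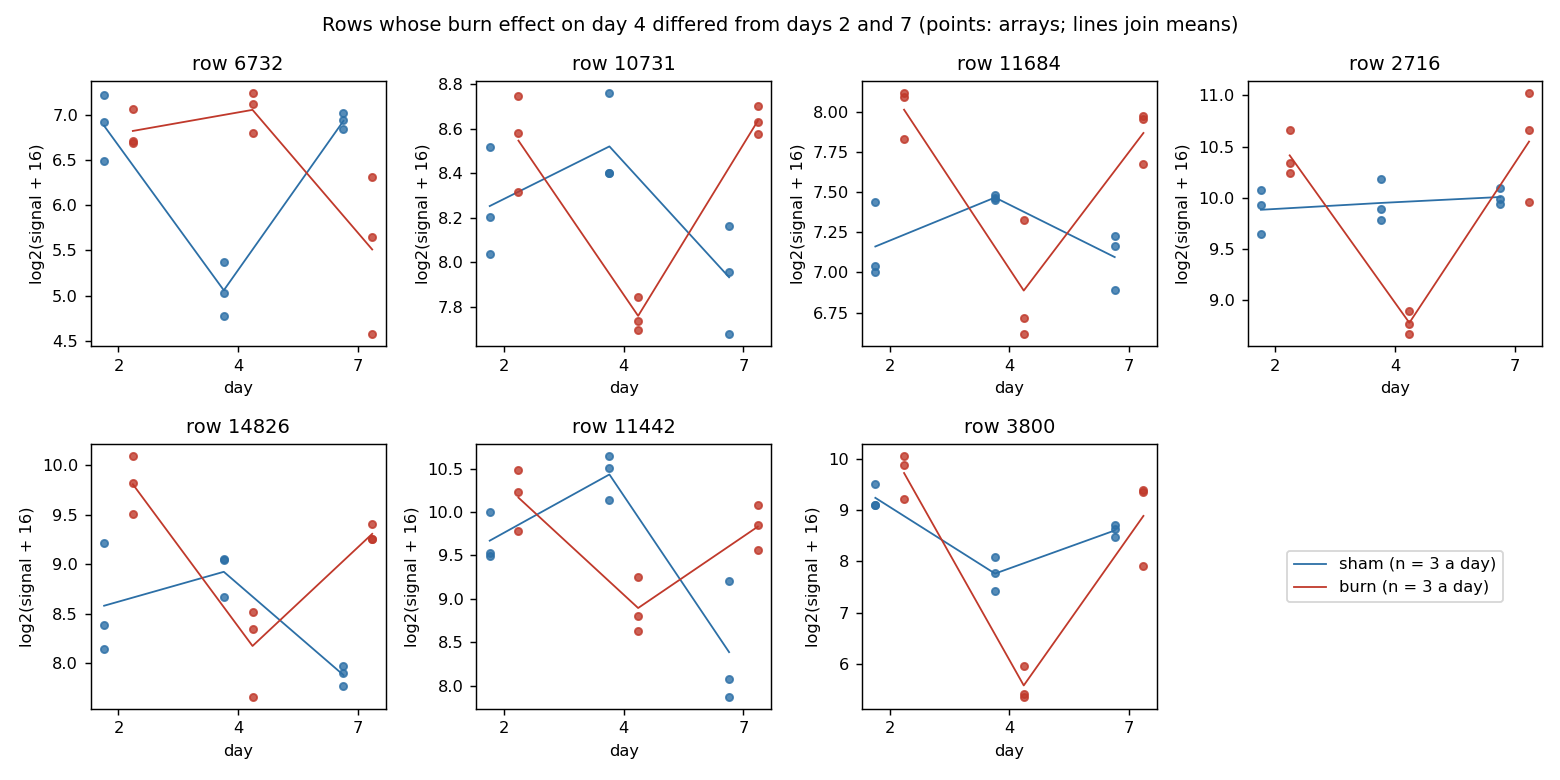
Each panel is 1 of the 7 rows in which the burn effect of day 4 differed from the mean of days 2 and 7 (limma adjusted p = 0.0412), with the level in log2(signal + 16) by day. Points are arrays, lines join group means, blue is sham and red is burn. In 6 panels burn dips below sham on day 4 only; in row 6732 sham does the dipping.

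No row of the 7 stayed called under every alternative, and their limma adjusted p ran from 0.0015 to 0.189, although the direction did not change in any. Leaving out single arrays gave 0 calls for 10 of 18 arrays, and 1, 4 and 1 for the day 7 burn replicates 1, 2 and 3. It gave 15 on dropping replicate 3 of the day 4 sham group, 39 for replicate 3 of day 2 sham and 81 for replicate 2 of day 7 sham. The 10 arrays include burn day 2 replicate 1, whose description goes against its title.

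More rows were called between burn liver of day 4 and burn liver of the other days than in the comparisons above. The median SE was also smaller here, at 0.19. It was 0.26 for the burn effect of day 4 minus the mean of days 2 and 7, and 0.22 for burn minus sham on day 4. The numbers of calls are therefore not on an equal footing. Burn arrays of day 4 differed from the mean of burn arrays of days 2 and 7 in 31 rows (0.195%, limma adjusted p under 0.05), 5 higher (0.0315%) and 26 lower (0.164%) on day 4. Without adjustment, 1816 rows (11.4%) had a p under 0.05, 886 upward (5.58%) and 930 downward (5.86%). The rows described from this set were chosen after their values were seen. The 26 lower ones had a median level of 8.34 (range 6.02 to 12.12). In all 31 rows the 3 burn arrays of day 4 lay outside the range of the 6 other burn arrays. The rows were called on these same arrays, so that separation follows largely from the choice. Over all rows it was so in 2.72% of rows upward and 2.99% downward. This comparison involves no sham array, so any difference between days in handling or hybridization cannot be told apart from one in the liver. The same contrast in sham arrays called 0 of 15866 rows, but 1969 rows had an unadjusted p under 0.05, more than in burn arrays. Over the other settings it called 0 to 23 rows in sham and 26 to 78 in burn arrays. The direct test of burn against sham in this contrast is the one above that called 7 rows.

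In the 26 rows that fell, the median difference was -1.09 in burn arrays and 0.04 in sham arrays. The rows were chosen by the burn contrast and not by the sham one, so a larger median in burn follows in part from the choice. The sham arrays of day 4 were lower than those of days 2 and 7 in 11 of the 26, and 4 of these had an unadjusted p under 0.05, as did 4 in the other direction. Over all rows the share at that p in the sham contrast was 12.4%, both directions together. Sham arrays thus also differed between days in some of the 26 rows. In the 5 rows that rose the median was 0.95 in burn and 0.08 in sham. Row 3800 fell most, by 3.73 ± 0.29 (SE, limma adjusted p = 3.629e-05), where sham differed by -1.16 ± 0.29. Row 8943 followed at -3.32 ± 0.56 (SE, limma adjusted p = 0.0254): burn read 9.51, 9.66 and 10.10 on day 2, 6.47, 6.01 and 6.17 on day 4, and 9.22, 8.93 and 9.80 on day 7. Its sham arrays were scattered, at 8.80, 8.64 and 6.22 on day 4.

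Row 10176 read 7.98, 8.18 and 8.13 in burn on day 2 and 7.34, 7.42 and 7.89 on day 7, but 5.69, 5.30 and 5.03 on day 4, a difference of -2.48 ± 0.46 (SE, limma adjusted p = 0.0421). Row 13913 fell by 2.24 ± 0.29 (SE, limma adjusted p = 0.0043), with sham at 6.07, 6.28 and 6.17 on days 2, 4 and 7. Burn in row 13913 was above sham by 1.17 and 1.18 on days 2 and 7 while on day 4 the difference was -1.23. With a pseudocount of 64 the differences of rows 10176 and 13913 were -1.63 and -1.32.

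Of the rows that rose, row 4515 and row 14265 were dim. Row 4515 averaged 4.85 and 5.07 in burn on days 2 and 7 and 6.85 on day 4, a difference of 1.89 ± 0.34 (SE, limma adjusted p = 0.0326). Row 14265 read 6.33, 6.25 and 6.25 on the burn arrays of day 4, while burn averaged 5.0 and 4.66 on days 2 and 7, 1.45 ± 0.20 apart (SE, limma adjusted p = 0.0064). Both sizes moved with the pseudocount: with 64 they were 1.09 in row 4515 and 0.71 in row 14265, and with 1 row 14265 differed by 2.32. The brighter rows 2989, 6738 and 10383 rose by 0.95, 0.87 and 0.57. On days 2 and 7 burn averaged below sham in each of them. Row 10383 was lower in burn on day 4 too, with a difference of -0.16 and no overlap. In row 2989 sham averaged 9.81, 10.13 and 10.29 and burn 9.14, 10.29 and 9.54.

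Calls held under every alternative in 6 of the 31 rows: 2716, 3800, 8041, 11263, 13690 and 15200, all lower on day 4. Row 8041 averaged 12.36, 11.17 and 12.41 in burn on days 2, 4 and 7 and 12.18, 12.23 and 12.37 in sham. Row 15200 averaged 8.25, 7.23 and 8.68 in burn and 7.90, 7.92 and 8.03 in sham. In both, burn of day 4 had the lowest mean of the 6 groups. The count of 31 became 6 and 16 when replicates 2 and 3 of the day 4 burn group were dropped, and 57 on dropping replicate 3 of the day 2 sham group. It was 18 on dropping the day 7 burn replicate 3, and 20 on dropping the day 7 burn replicate 1 or either of the day 2 burn replicates 2 and 3.

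**Figure D5:**
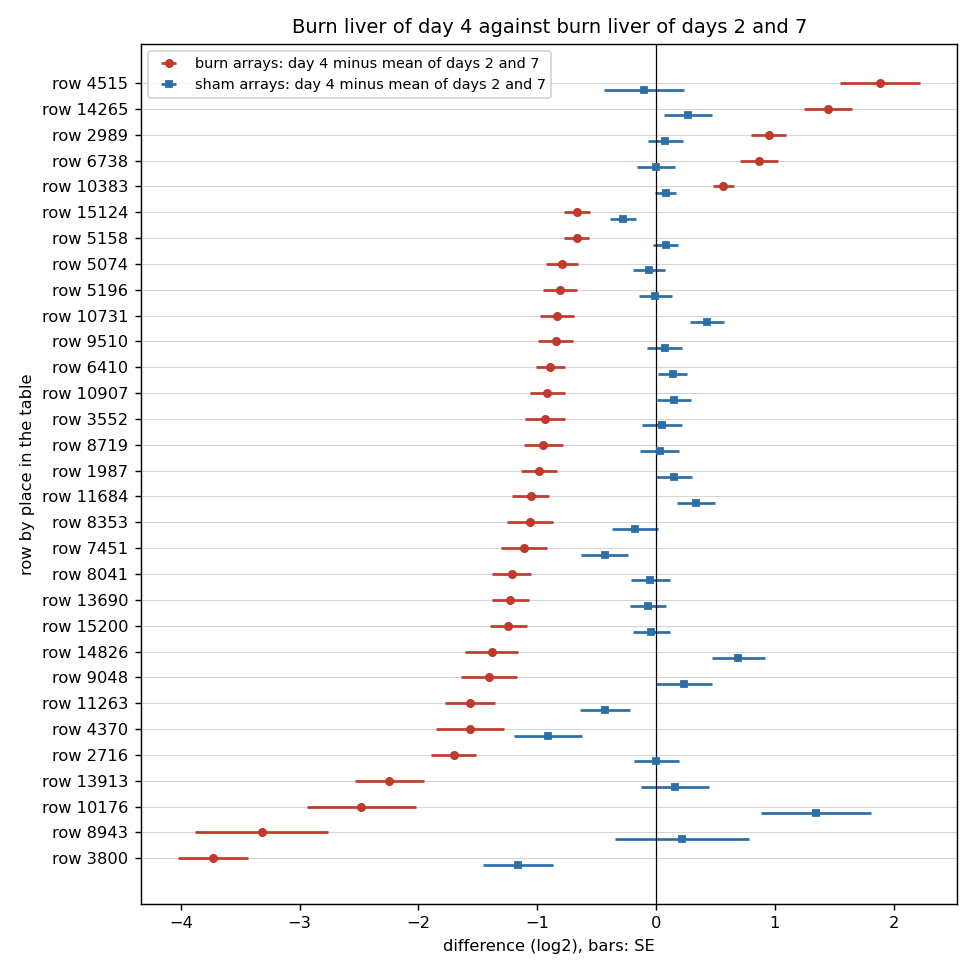
Red circles give burn arrays of day 4 minus the mean of burn arrays of days 2 and 7, and blue squares the same contrast in sham arrays, in the 31 rows called for burn. The horizontal axis is in log2 units and bars are SE from limma. Of the 31 rows, 26 were lower and 5 higher on day 4 in burn, while the sham squares scatter around 0. The rows were chosen by the burn contrast and not by the sham one.

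Among control transcripts, left out of all counts, beta-actin (Actb), a cytoskeletal protein, averaged 12.43 ± 0.06 in burn and 12.81 ± 0.0030 in sham on day 4 (SD, n = 3 each), a difference of -0.38 without overlap (-0.34 on values as deposited, -0.28 with median scaling). The ratio of its 3' to its 5' probe set, a measure of RNA integrity, was 0.81 ± 0.09 in burn and 0.70 ± 0.24 in sham (log2; SD, n = 3 each), with overlapping arrays, and its part in the results above was not tested.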

How the data were processed

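The authors deposited 1 intensity value per probe set and array for 24 arrays. The deposited intensities share a mean near 500.2 on each of the 18 arrays used after 2% of values was trimmed at each end; no label or header names the software behind them. In R 4.3.3, 18 arrays (6 groups of 3, days 2, 4 and 7) were quantile-normalized as log2(signal + 16) and fitted with limma 3.58.1, 1 mean per group, with Benjamini-Hochberg adjustment over 15866 rows. The 57 control rows stayed in the normalization and out of the tests. The test was checked on simulated data with added differences larger than most seen here. That check does not show what the test detects at smaller sizes. Rows are named by a rule on values: the 6 largest differences each way without overlap and a level of at least 8, the 4 largest each way among the brightest 5%, the 3 lowest p each way and the largest each way at any level. Members, lists and rules were chosen with earlier results of these data known. Alternatives were values as deposited, median scaling, pseudocounts of 1 and 64, the dimmest of 3 equal bands of rows left out, an intensity trend with robust variance, array weights, day 4 alone, replicate blocks and each array left out.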

Additional observations from a re-analysis of the deposited data

Results flagged for a closer look

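The burn effect of day 4 differed from the mean effect of days 2 and 7 by limma's test in 7 rows: by -1.71 in row 2716, -2.57 in row 3800, 2.74 in row 6732, -1.26 in row 10731, -2.51 in row 11442, -1.39 in row 11684 and -2.08 in row 14826. Against day 7 alone it differed by 3.42 in row 6732 and -2.99 in row 11442.

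In 4 of 6 measures of control transcripts every burn array of day 4 lay on the opposite side of its sham mean from every burn array of days 2 and 7. The Gapdh level and the Hk1 ratio of 3' to 5' did not show this. No test of that difference was made. The rule takes no account of the spread of the sham arrays, and the level and ratio of a transcript share probe sets. The Actb level differed by -0.38 on day 4, against 0.14 on day 2 and 0.44 on day 7. The level of Hk1, a hexokinase, differed by -0.49, against 0.56 and 0.23. Hk1 was dim, and its day 2 sham arrays, at 4.88 to 6.46, overlapped the burn arrays at 6.31 to 6.47. The 3' to 5' ratio differed by 0.11 for Actb, against -0.36 and -0.74, and by 0.18 for Gapdh, a glycolytic enzyme, against -0.18 and -0.50. On day 4 burn and sham arrays overlapped in both ratios.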

How the results depend on the processing

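With the dim band of rows being the dimmest of 3 equal bands by mean level, the day 4 count of 0 became 3 on values as deposited, 2 without the dim band, 1 under array weights and 6 where the variance had an intensity trend and was robust. The 7 rows whose day 4 effect differed from the mean of days 2 and 7 became 3 with median scaling, 0 and 18 with pseudocounts of 1 and 64, 32 without the dim band, 63 with the trend and 39 with weights. Against day 7 the 2 calls became 3 on values as deposited, 0 and 7 with the pseudocounts, 18 without the dim band, 28 with the trend and 30 with weights. For sham arrays the count of 0 became 2 with median scaling, 6 with a pseudocount of 64, 13 without the dim band, 23 with the trend and 3 with weights. For burn arrays the 31 became 78 with the trend and 69 with weights. The 69 and 78 rows at least 2-fold apart became 141 and 156 with a pseudocount of 1, 14 and 29 with 64, and 19 and 38 without the dim band, which tests fewer rows. Causes of the other changes were not tested. Leaving out 1 array gave 0 to 4 calls on day 4, 0 to 81 against the mean of days 2 and 7, 0 to 11 against day 2, 0 to 66 against day 7, 0 to 21 for sham arrays, 6 to 57 for burn arrays, and 67 to 162 higher and 78 to 156 lower rows at least 2-fold apart. With the replicate block within days the counts were 0 on day 4, 2 against the mean and 1 against day 7; with the replicate block over days they were 0, 1 and 1, and 32 for burn arrays. Same-numbered burn and sham arrays of day 4 had deviations correlated at 0.17, 0.11 and 0.027, and different-numbered ones at -0.14 to 0.040. The main fit did not take the numbers as pairs, and whether they mark pairs was not tested. No sign reversed for a named row, in 578 values from changed settings or 1188 from a dropped array. Among day 4 rows at an unadjusted p under 0.05, burn was the higher in 53.3% (44.6% as deposited, 58.4% under median scaling). The next shares are for rows at an unadjusted p under 0.05 in their own comparison, in the same order. Sham arrays were higher on day 4 than the mean of days 2 and 7 in 46.5%, 62.7% and 27.3%. Burn arrays were so in 48.8%, 46.6% and 38.3%. The burn effect was higher on day 4 than on day 7 in 49.6%, 32.0% and 62.4%. The dim rows have the widest spread, and the 3 arrays a group limit what could be detected.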
